A study of Mus musculus with 3 samples.

Results

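Hair-follicle-marker nuclei are the nuclei of mouse back skin whose chromatin was open at genes of hair follicle keratinocytes, the epithelial cells that build the follicle. They were chosen by a rule on measured values. A nucleus had to have 3 or more open features in the windows of 11 markers (Krt79, Krt42, Cldn8, Dlx3, Irx4, Il22ra1, Krt17, Krt15, Sox9, Lhx2 and Krtap11-1), and a share of open features there at least 2 times that of all nuclei pooled. It also had to have fewer than 2 open features at 6 barrier genes of the outer epidermis (Casp14, Krtdap, Dmkn, Asprv1, Tmprss11f and Il20ra). The rule found 127 of 12348 nuclei: 26 of 2042 in telogen, 31 of 3753 in anagen and 70 of 6553 after UVB. A feature is a 500 bp stretch of the genome, and an open call is 1 feature with any count in 1 nucleus. A gene's window is its body with 2 kb on both sides, in the mouse build GRCm38. Levels are given in CPM, the open calls in a window per 1000000 open calls of the same group of nuclei.

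The study compared melanocyte stem cells at rest with those activated by hair growth or by ultraviolet light, using single-nucleus ATAC-seq, which marks accessible DNA by inserting sequencing adapters into it. All mice were Dct-rtTA; Tre-H2B-GFP animals given doxycycline for 5 days, 20 mg in 100 ml of drinking water, so that the Dct promoter, a melanocyte lineage promoter, drives a green nuclear label. Telogen nuclei came from a pool of 12 mice in the resting phase of the hair cycle. Anagen nuclei came from a pool of 8 mice whose hair cycle was started by chemical depilation with Nair cream, and were deposited as the same sample as telogen. The UVB nuclei came from a pool of 24 mice exposed 3 times within a week to 2.2 mJ/cm2, in 1 matrix that holds both technical replicates. The labels give an age of 7 weeks in the treatment text and of 8 weeks elsewhere. Since nuclei were sorted for the green label, keratinocyte nuclei are not the cells the sort was set for, and their shares say nothing of their numbers in skin. With 1 pool for each condition there is no replicate of a condition, so no test of a condition was possible. All intervals are exact 95% intervals for counting error only, and nuclei of 1 pool are not replicates.

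Hair follicle keratinocytes form concentric layers around the hair. The outer root sheath continues the basal epidermis and is rich in keratins 5, 14 and 17, the bulge within it holds the stem cells that restart hair growth, the matrix at the base divides to make the shaft and the inner root sheath, and the upper follicle opens to the skin surface. Melanocyte stem cells live in the bulge and the hair germ below it, next to these keratinocytes, which send them signals such as endothelin, Wnt and Kit ligands.

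Members were deeper than other nuclei. Their median number of open features was 2068 in telogen, 2538 in anagen and 2409.5 after UVB, against 924.5, 893 and 944 in the other nuclei. Of the members, 5 and 5 lay in the 2 shallowest of 4 equal classes of nuclei by depth, 23 in the third and 94 in the deepest, where they made up 3.05% of nuclei against 0.163% in the shallowest. When every nucleus with at least 1000 open features was thinned to 1000, the rule found 6 of 925, 8 of 1691 and 16 of 3093 nuclei in telogen, anagen and UVB, where it had found 24, 27 and 63 of the same nuclei unthinned. Barcodes carry a tag number that the labels do not explain, and in UVB 1 tag stood apart. Tag number 19 held 64 of the 70 UVB members, 2.18% of its 2934 nuclei (1.68 to 2.78), and the other UVB tags together held 6 of 3619, or 0.166% (0.0609 to 0.361). Nuclei open at melanocyte markers were 7.46% of nuclei in tag number 19 and 23.2% in the other UVB tags. The UVB share of 1.07% (0.834 to 1.35) therefore rests on 1 tag, and the shares of 1.27% (0.833 to 1.86) in telogen and 0.826% (0.562 to 1.17) in anagen overlap with it. In telogen, members were most frequent in tag numbers 2 and 3, at 4 of 60 and 5 of 120 nuclei, which had a median depth of 4755.5 and 2431 open features. In all, 4 telogen, 4 anagen and 5 UVB members had a barcode that also occurs in another condition.

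**Figure D1:**
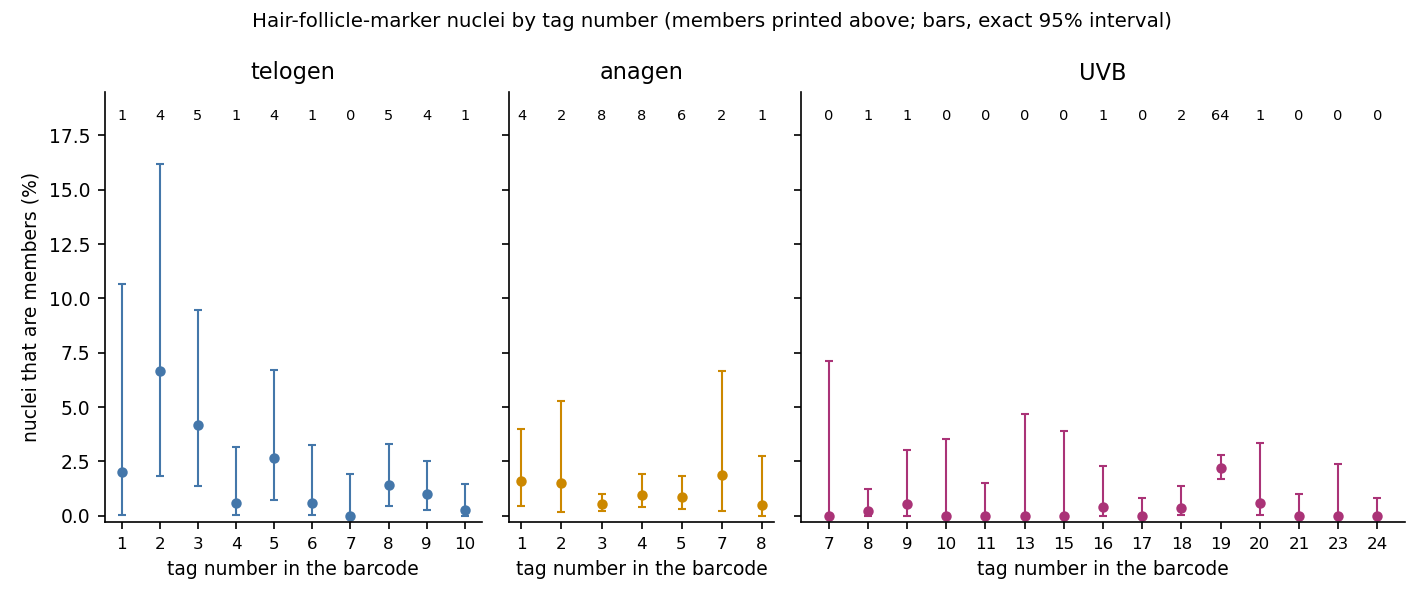
Share of nuclei that are members (%) for each tag number with at least 50 nuclei, in telogen, anagen and UVB; points are shares, bars exact 95% binomial intervals, and the numbers at the top are the members found. In UVB tag number 19 holds 64 members, and no other UVB tag holds more than 2.

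The promoters of the markers show where the members were open near a gene start. RefSeq's promoter table (GRCm38.p6) held 6 of the 11 markers. Those overlapped by a deposited feature are shown with Sfn, a gene of stratified epithelia whose start was open in more members than any of the marker starts printed here; Sfn was added after its values were seen. The Krt42 promoter, which no feature overlaps, is given because Krt42 had the largest marker difference. Each run covers 250 bases before to 50 after the start and reads 5′ to 3′ along the gene. Capitals mark matches, on either strand, to a TATA box (TATAAA), the AP-1 motif (TGANTCA) or the AP-2 motif (GCCNNNGGC); the homeodomain core (TAATTA) was also searched and was in none of them.
Krt79 (chr15:101940275-101940574, minus strand): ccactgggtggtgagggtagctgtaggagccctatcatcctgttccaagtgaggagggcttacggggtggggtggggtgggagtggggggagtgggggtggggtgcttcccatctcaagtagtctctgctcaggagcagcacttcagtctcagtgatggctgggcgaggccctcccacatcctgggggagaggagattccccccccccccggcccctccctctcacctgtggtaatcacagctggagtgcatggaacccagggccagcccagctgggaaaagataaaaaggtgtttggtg
Il22ra1 (chr4:135727909-135728208, plus strand): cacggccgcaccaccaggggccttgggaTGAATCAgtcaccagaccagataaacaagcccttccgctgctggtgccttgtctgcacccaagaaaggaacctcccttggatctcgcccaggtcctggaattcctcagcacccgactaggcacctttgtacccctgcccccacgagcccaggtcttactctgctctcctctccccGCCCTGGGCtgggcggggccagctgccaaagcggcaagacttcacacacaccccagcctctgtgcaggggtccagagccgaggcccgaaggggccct
Krtap11-1 (chr16:89571134-89571433, minus strand): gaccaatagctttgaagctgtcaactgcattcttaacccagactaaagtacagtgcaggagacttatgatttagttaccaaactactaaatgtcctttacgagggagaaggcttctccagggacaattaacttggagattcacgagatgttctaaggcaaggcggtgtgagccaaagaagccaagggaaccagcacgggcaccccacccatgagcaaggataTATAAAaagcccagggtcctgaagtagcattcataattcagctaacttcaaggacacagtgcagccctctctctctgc
Irx4 (chr13:73260247-73260546, plus strand): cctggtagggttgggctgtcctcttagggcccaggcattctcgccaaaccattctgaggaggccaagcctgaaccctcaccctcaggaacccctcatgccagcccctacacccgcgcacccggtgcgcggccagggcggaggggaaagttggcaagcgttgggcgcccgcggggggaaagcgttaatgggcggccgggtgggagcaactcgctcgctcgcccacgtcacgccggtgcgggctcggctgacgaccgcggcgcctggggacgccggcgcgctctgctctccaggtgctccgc
Lhx2, inner start (chr2:38351058-38351357, plus strand): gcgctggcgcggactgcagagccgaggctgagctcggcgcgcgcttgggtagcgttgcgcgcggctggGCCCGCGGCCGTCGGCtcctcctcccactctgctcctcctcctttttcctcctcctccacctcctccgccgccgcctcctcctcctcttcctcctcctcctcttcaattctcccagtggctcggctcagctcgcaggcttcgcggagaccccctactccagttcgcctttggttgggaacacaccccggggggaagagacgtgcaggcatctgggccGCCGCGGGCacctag
Krt42 (chr11:100269902-100270201, minus strand): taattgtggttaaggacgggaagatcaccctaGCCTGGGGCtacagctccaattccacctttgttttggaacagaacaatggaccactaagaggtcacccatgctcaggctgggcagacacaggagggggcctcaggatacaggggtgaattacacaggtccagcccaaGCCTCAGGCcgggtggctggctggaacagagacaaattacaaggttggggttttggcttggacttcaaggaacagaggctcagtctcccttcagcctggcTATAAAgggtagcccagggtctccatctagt
Sfn (chr4:133602119-133602418, minus strand): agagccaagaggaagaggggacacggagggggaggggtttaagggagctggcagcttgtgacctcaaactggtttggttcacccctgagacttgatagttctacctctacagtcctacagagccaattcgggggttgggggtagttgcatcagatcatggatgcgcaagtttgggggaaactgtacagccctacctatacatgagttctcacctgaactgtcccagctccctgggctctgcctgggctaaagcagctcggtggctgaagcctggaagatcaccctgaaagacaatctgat
Of 32851 promoters of the same length, 13.6% hold the TATA box letters, 7.81% the AP-1 letters, 16.6% the AP-2 letters and 5.29% the homeodomain letters. The TATA letters were found in Krtap11-1 and Krt42 and the AP-1 letters in Il22ra1. The AP-2 letters were found in Il22ra1, the inner Lhx2 start and Krt42. A match is a description of the sequence and not a bound site.

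Features over these promoters were open in few members, and in a far smaller share of the other nuclei. The Sfn promoter was open in 35 members (27.6%, 20.0 to 36.2) and in 2.94% of others. The Il22ra1 promoter was open in 22 members (17.3%, 11.2 to 25.0) and in 0.622% of others, and that of Krt79 in 20 members (15.7%, 9.89 to 23.3) and in 0.507%. The inner Lhx2 start was open in 19 members (15.0%) and 1.26% of others, the Krtap11-1 start in 14 (11.02%) and 0.229%, and the Irx4 start in 6 (4.72%) and 0.115%. For the marker genes these contrasts were used by the rule and are descriptions only. The Sfn promoter was not used by it.

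No single marker was open in most members. Krt17, a keratin of the outer root sheath, was open in 44 of the 127 (34.6%, against 1.52% of others), and Lhx2, a homeodomain factor of follicle stem cells, in 27 (21.3% against 2.44%), with the other markers in between. Krt79, a keratin of the upper follicle and sebaceous duct, stood at 188 CPM in telogen members, 90.6 in anagen and 233 in UVB, against 16.7, 5.44 and 13.6 in other nuclei. Krt17 stood at 246, 299 and 127 CPM, against 20.2, 6.14 and 14.3. Krtap11-1, a keratin-associated protein of the hair shaft, stood at 57.9, 45.3 and 188, against 9.94, 2.28 and 11.4. Krt42, a type I keratin beside Krt17, stood at 145, 163 and 96.4 CPM, with intervals that overlap in all 3 conditions. These are values the rule used, and no order of the conditions is read from them. Il22ra1, which codes for a subunit of the interleukin-22 receptor, stood at 159, 72.5 and 137 CPM in telogen, anagen and UVB. Krt15, a bulge keratin, stood at 101, 54.4 and 127, and Sox9, a regulator of the outer root sheath and bulge, at 188, 72.5 and 112. Intervals were wide, for example 100 to 322 for Krt79 in telogen and 43.5 to 167 in anagen, and overlapped between telogen and anagen for each of the markers named here.

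**Figure D2:**
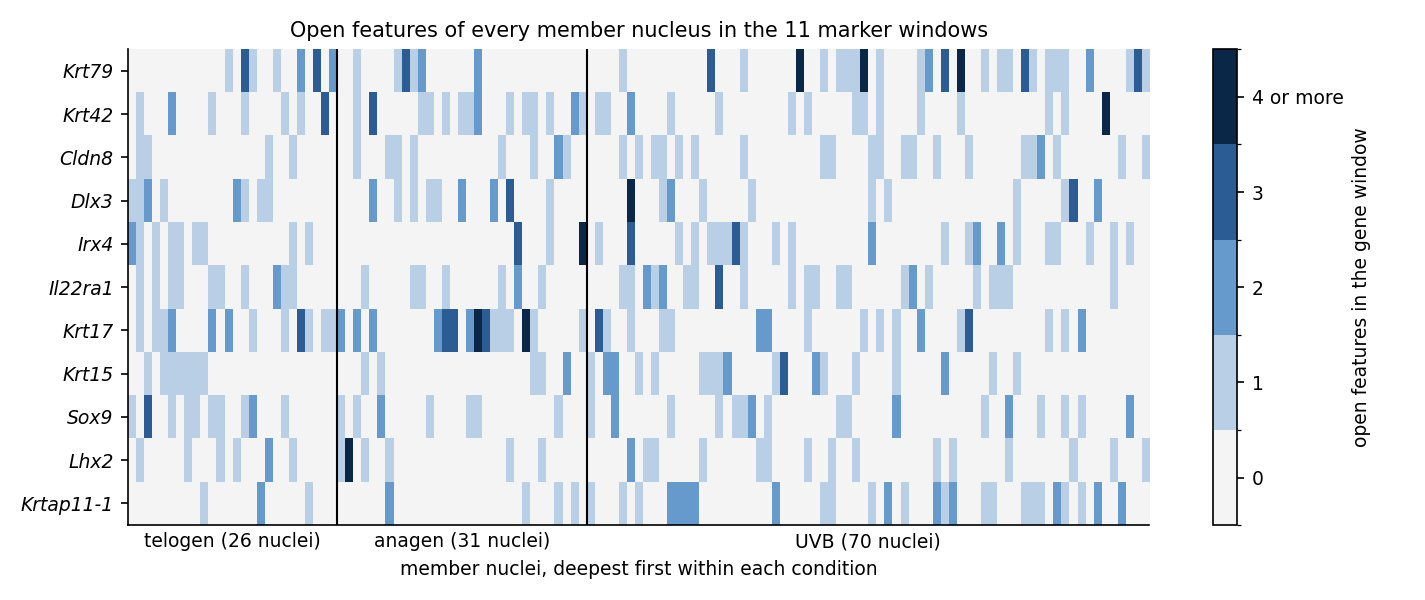
Open features (colour, from 0 to 4 or more) in each marker window (rows) for each of the 127 members (columns, deepest first within telogen, anagen and UVB). Most members hold 1 open feature at each of a few markers; 58 are open at 3 distinct markers.

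Members combined different markers. Of the 127, 9 were open at 1 marker only, 30 at 2, 58 at 3, 21 at 4 and 9 at 5 or more. Krt17 and Krt42 were open together in 26 members, but they are neighbours on chromosome 11 whose windows share 2 features. Among genes that share no feature, Cldn8, a claudin of tight junctions, and Krtap11-1 were open together in 16 members, and Irx4, an Iroquois factor, and Il22ra1 in 14. Cldn8 and Krtap11-1 both lie on chromosome 16, from bases 88560826 and 89570176. The rule asked for 3 or more open features at the markers, so joint opening is favoured by the choice. The limit of the rule lies in a crowded range: 66 members had exactly 3 open features in marker windows, 61 had 4 or more, and 240 nuclei had 2 and were left out. A further 50 nuclei, 19 in telogen, 0 in anagen and 31 in UVB, were left out for their barrier genes and 1 for its low share. The level of general epithelial genes against other nuclei was 2.45-fold in members with 3 open features, 2.63-fold in those with more, 2.01-fold in the nuclei with 2 and 2.70-fold in those left out for barrier genes.

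Each marker was also examined in nuclei chosen from the other 10 markers, so that it had no part in their choice. Expected open calls here and below are those that other nuclei of the same condition would give at the depth of the members. Cldn8 had 19 open calls against 2.33 expected, 8.15-fold (4.91 to 12.7). The ratio was 7.89 for Krt42 outside the features shared with Krt17, 7.29 for Il22ra1, 6.15 for Dlx3, a homeodomain factor of the hair matrix, and 6.07 for Irx4. It was 5.01 for Krtap11-1, 4.80 for Krt79 and 4.60 for Sox9. The genes with the lowest ratios were Krt17 at 2.86 (1.37 to 5.26), Krt15 at 2.52 (1.26 to 4.51) and Lhx2 at 2.01 (1.07 to 3.44). All 11 intervals lay above 1. All 11 ratios were lower than those over all members, which ran from 4.56 for Lhx2 to 19.8 for Krt42. The choice favours this order, since each marker helped to choose the full set of members.

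**Figure D3:**
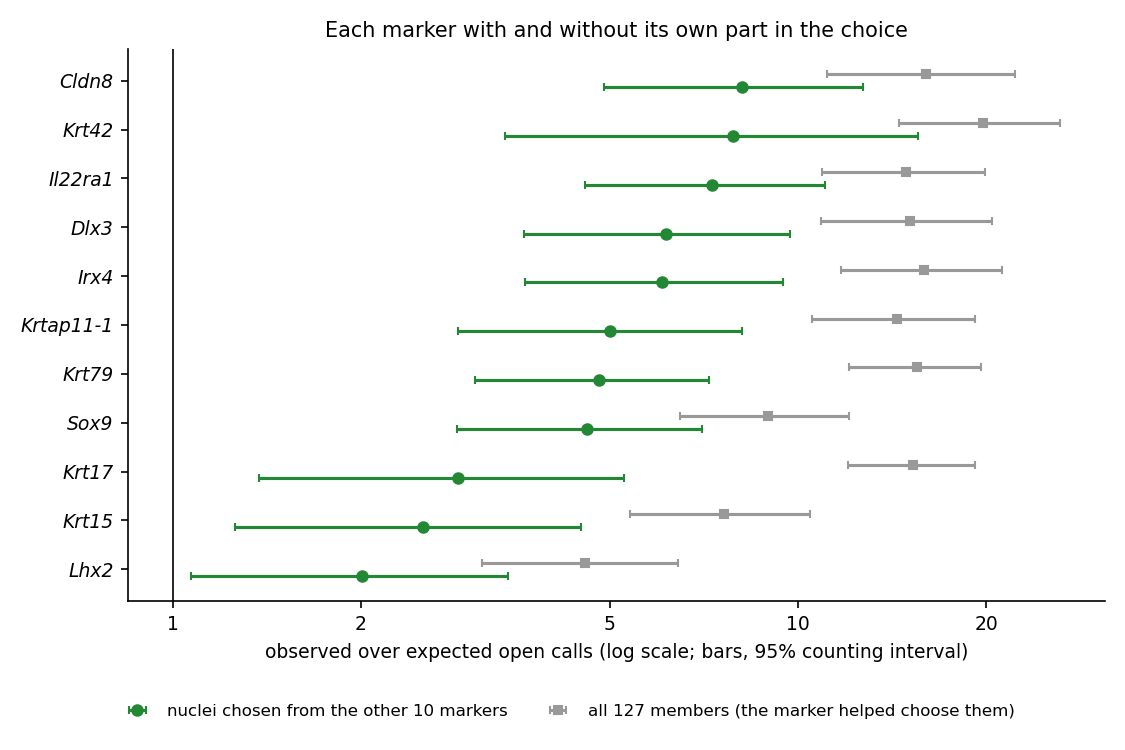
Observed over expected open calls (log axis) for each marker in nuclei chosen from the other 10 markers (green) and in all 127 members (grey); bars are 95% counting intervals. The green points run from 2.01 for Lhx2 to 8.15 for Cldn8, each below its grey point, an order that the choice of members favours.

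Genes outside the rule windows were described in the same nuclei. Over 9895 genes with at least 10 expected member calls, 2.75% were at least 2-fold higher in members and 5.52% at least 2-fold lower, and the median ratio was 0.92. General epithelial genes, which hold skin cells together or set epithelial identity, were 2.40-fold higher as a list (2.25 to 2.55), with 982 open calls. Of its 19 genes 14 had enough calls, and 8 of those were at least 2-fold higher and 0 lower. Their median ratio was 2.83. Esrp2, a splicing regulator of epithelia, stood at 217 CPM in telogen members, 145 in anagen and 183 after UVB, against 71.0, 34.0 and 42.3 in other nuclei. Pkp1, a desmosome protein, stood at 333, 217 and 238 against 130, 22.3 and 76.7. Both were higher in members in each condition, 3.94-fold (3.05 to 5.00) and 3.54-fold (2.86 to 4.33). Dsp, the desmosome's desmoplakin, was 3.55-fold higher, Esrp1 3.41-fold and Grhl2, an epithelial transcription factor, 3.05-fold, while Cdh1, Jup, Cldn1, Grhl1 and Klf5 lay between 1.51 and 1.95.

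Outer root sheath and companion layer genes had the highest list ratio, 4.27 (3.63 to 5.01), from 154 open calls. Only Krt14 and Barx2 had enough expected calls, and both were above 2-fold. Krt14, the basal keratin, stood at 246 CPM in telogen members, 63.4 in anagen and 152 after UVB, against 52.2, 5.96 and 29.1 in others, 5.39-fold (4.05 to 7.04). Its gene lies 48705 bp from the nearest marker. Barx2, a homeobox factor of the follicle, stood at 246, 36.2 and 178 against 52.2, 13.5 and 48.5, 3.82-fold (2.89 to 4.96). Krt5, the partner of Krt14, had 32 calls at 3.82-fold, and Krt16 10 calls at 7.33-fold (3.51 to 13.5). With only the 2 genes more than 1 Mb from any rule gene the list stood at 3.70 (2.80 to 4.79).

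Genes of other follicle compartments were higher to different degrees. Upper follicle genes stood at 2.19 (1.94 to 2.46), with Lgr6, a stem cell receptor of the upper follicle, at 4.77 (3.79 to 5.92) and Lrig1 at 1.47 (1.22 to 1.76). Lgr6 had 318, 109 and 243 CPM in telogen, anagen and UVB members against 61.8, 31.0 and 48.2 in others, so members were higher in each. In the 6 UVB members outside tag number 19 the upper follicle list stood at 0.54 (0.15 to 1.37), from 4 calls. Hair matrix and shaft genes stood at 1.87 (1.61 to 2.16) and at 1.56 (1.31 to 1.84) for the 5 genes far from the rule genes. Of the 2 genes of this list with enough expected calls 0 were past 2-fold, and their median ratio was 1.24. In members 6 of the 16 genes had no open calls. Foxn1 and Hoxc13, regulators of shaft differentiation, were 3.87-fold (27 calls) and 4.59-fold (20 calls) higher. Both had too few expected calls to be counted. Inner root sheath genes stood at 1.52 (1.25 to 1.82), with 0 of 2 genes past 2-fold, and sebaceous gland genes at 1.17 (1.02 to 1.34), with 0 of 7.

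Bulge stem cell genes were slightly higher in telogen and UVB members. The list ratio was 1.34 (1.11 to 1.61) in telogen, 0.93 (0.77 to 1.11) in anagen and 1.55 (1.39 to 1.72) after UVB, 1.33 (1.23 to 1.44) over all. Of 11 genes with enough calls, 2 were at least 2-fold higher and 0 lower. Vdr, the vitamin D receptor, which hair cycling needs, stood at 304, 136 and 309 CPM in telogen, anagen and UVB against 95.1, 31.7 and 79.2, 3.78-fold (3.06 to 4.61). Runx1, a runt factor of follicle stem cells, stood at 376, 163 and 279 against 152, 92.2 and 105, 2.39-fold (1.94 to 2.91). Classical bulge genes did not reach 2-fold: Lgr5 stood at 1.29 (0.79 to 1.99), Nfatc1 at 0.85 (0.70 to 1.03) and Cd34 at 0.77 (0.35 to 1.46). Without the 5 melanocyte-open nuclei described below the anagen ratio was 1.11 (0.90 to 1.36), and in the 6 UVB members outside tag number 19 the list stood at 1.21 (0.81 to 1.73). Without the tag number with most members in each condition, the list ratio was 1.06, while that of the outer root sheath was 5.19 and that of general epithelial genes 2.70.

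Epidermal genes were higher too. The basal list stood at 1.68 (1.55 to 1.83), with 5 of 9 genes at least 2-fold higher: Krt14, Trp63 at 2.68 (2.13 to 3.32), the integrin Itga6 at 2.35, the hemidesmosome collagen Col17a1 at 2.17 and the laminin Lama3 at 2.01. The suprabasal list stood at 2.17 (1.85 to 2.54), with 1 of 3 genes past 2-fold, Grhl3 at 2.27. The type I keratin cluster on chromosome 11, outside the rule windows, stood at 3.60 (3.00 to 4.28) and the type II cluster on chromosome 15 at 1.83 (1.61 to 2.07). The markers Krt15, Krt17 and Krt42 lie in the first cluster and Krt79 in the other. Both values are thus from neighbours of genes the rule used and are not independent of it. Members thus had open epithelial, outer root sheath, upper follicle and suprabasal genes, while bulge, inner root sheath and sebaceous genes lay closer to the level of other nuclei. This is not particular to members: outer root sheath genes stood at 4.88 in members with 3 open marker features and 4.83 in those with more, beside 3.57 in the nuclei left out with 2 and 3.96 in those left out for barrier genes. The label was kept only in that sense, and members are called by their markers.

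**Figure D4:**
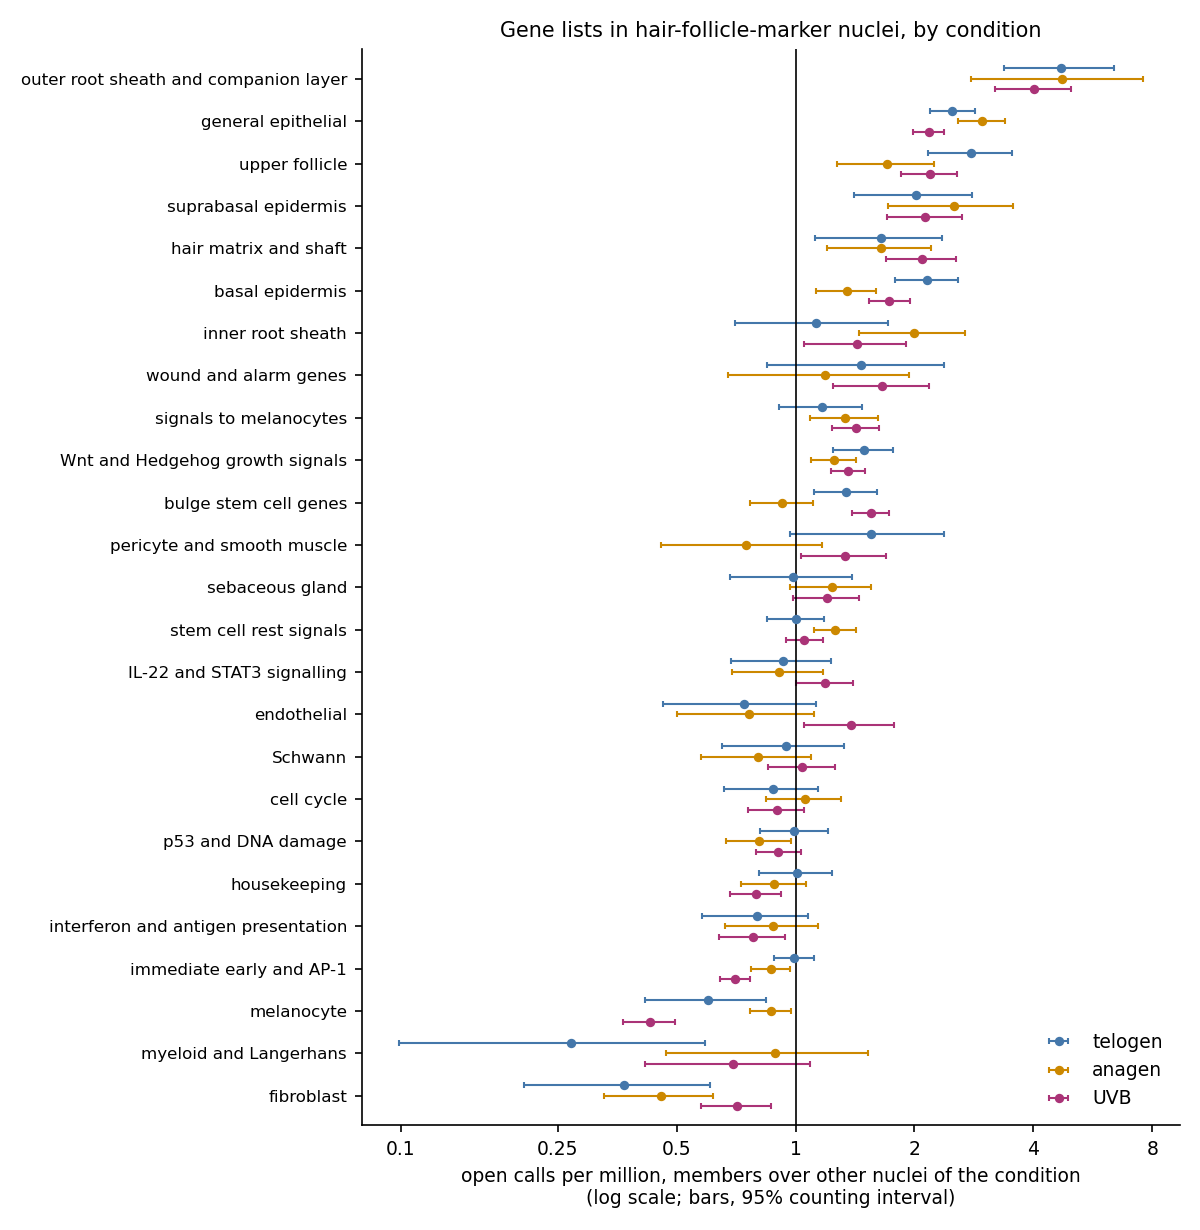
Ratio of CPM in members over other nuclei (log axis) for each gene list, in telogen (blue), anagen (orange) and UVB (purple); points are ratios and bars 95% counting intervals, and 5 lists with few calls, the markers and the barrier genes are not drawn. Outer root sheath genes lie between 4.01 and 4.72 in the 3 conditions, fibroblast genes between 0.37 and 0.71.

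Over the 3 conditions together, most lists of other cell types were lower in members or near the level of other nuclei. Fibroblast genes stood at 0.57 (0.49 to 0.67), with 5 of 9 genes at least 2-fold lower, among them the collagens Col1a2 at 0.43 (0.23 to 0.73) and Col3a1 at 0.48 and, from 3 calls, Twist2 at 0.24 (0.05 to 0.69). Their summed level was 217, 381 and 502 CPM in telogen, anagen and UVB members, against 591, 835 and 708 in others. Myeloid and Langerhans genes stood at 0.59 (0.42 to 0.81), with Lyz2, Cd207 and Adgre1 at 0 where 0.947, 0.0898 and 0.922 calls were expected, endothelial genes at 1.01 and Schwann genes at 0.96. Pericyte and smooth muscle genes stood at 1.20 (0.98 to 1.44). In UVB members alone, endothelial genes stood higher, at 1.38 (1.05 to 1.78), as did pericyte and smooth muscle genes at 1.33 (1.03 to 1.70). In the Schwann list 1 of 8 genes was at least 2-fold higher and 2 were lower, with a median ratio of 0.84. The higher gene was Ngfr, a neurotrophin receptor that follicle keratinocytes also express, at 2.64 (1.79 to 3.74).

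Melanocyte genes were lower in members in each condition. The list stood at 492 CPM in telogen members, 2546 in anagen and 867 after UVB, against 818, 2943 and 2032 in others, ratios of 0.60 (0.42 to 0.84), 0.87 (0.77 to 0.97) and 0.43 (0.36 to 0.50). Of 12 genes with enough calls 0 were at least 2-fold higher and 2 lower: Dct, whose promoter drives the label, and Pax3, both at 0.44 (0.33 to 0.58). Dct stood at 72.4, 245 and 112 CPM in members and at 104, 397 and 363 in others. By the same kind of rule on melanocyte markers, 7 members were also open there, 1 in telogen, 5 in anagen and 1 in UVB. The 5 anagen nuclei were deep, with a median of 9263 open features, and held 37934 of the 110359 open calls of anagen members. Without these 7 the melanocyte list stood at 0.55 (0.38 to 0.79) in telogen, 0.41 (0.33 to 0.51) in anagen and 0.39 (0.33 to 0.46) after UVB. The 7 were chosen by this same list, and the other nuclei were not filtered by it. Lower melanocyte ratios without the 7 therefore follow from the choice and are descriptions only. In anagen, the outer root sheath list without these 7 stood at 7.19 (4.24 to 11.5). In the UVB members outside tag number 19 the melanocyte list stood at 0.66 (0.44 to 0.96).

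Single nuclei were also typed by each list, with at least 3 open features and 2 times the pooled share. Beside them stand 2419 other nuclei (median 2260 open features against 2333 in members). These others were limited to 1603.5 to 3903.5 open features, while members of all depths were counted. Members outside this range, which reached 11807 open features, have no counterpart, so the shares are matched in median depth only. General epithelial genes were open by this typing in 80 members (63.0%, 54.0 to 71.4) and in 14.8% of the matched nuclei. Outer root sheath genes were so in 21 members (16.5%) against 2.48%, and suprabasal genes in 24 (18.9%) against 4.46%. Fibroblast genes were so in 7 members (5.51%) against 23.2%, melanocyte genes in 7 (5.51%) against 15.9% and Schwann genes in 16 (12.6%) against 10.9%. Pericyte and smooth muscle genes went the other way, in 11 members (8.66%, 4.40 to 15.0) against 4.30%, and endothelial genes were so in 10 (7.87%) against 5.95%. The other members did not reach this level for the epithelial list, which at these depths does not show that it was closed.

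Single genes outside the rule windows with at least 50 open calls in all nuclei were ranked by the end of the interval nearest 1 in the condition where it was nearest. The 10 highest were Krt14, Casz1, Ntf5, Snai3, Acpp, Itga3, Vdr, Pou2f3, Rnf144b and Tpm2. Casz1, a zinc-finger factor, had the most calls: 1100 CPM in telogen members, 399 in anagen and 751 after UVB, against 281, 113 and 169 in others, 4.10-fold (3.62 to 4.62). Ntf5, a neurotrophin, had 101, 54.4 and 65.9 against 15.6, 8.94 and 11.4, 6.02-fold (3.93 to 8.82). Snai3, of the Snail family of repressors, was 5.71-fold higher (3.58 to 8.64) and Acpp, an acid phosphatase, 5.04-fold; these 3 had under 10 expected member calls and are not in the counts above. Itga3, an integrin that binds laminin, was 3.74-fold higher and lies 43273 bp from the nearest marker, and Pou2f3, a POU-domain factor of keratinocytes, was 3.25-fold higher (2.62 to 3.99). All 10 were higher in members in each of the 3 conditions, which the ranking favours. The 10 lowest were Rftn1, Cubn, Bicc1, Kctd12, Itga9, Zfp469, Ephb2, Tmeff2, Prkg1 and Sh3kbp1, with ratios from 0.20 for Bicc1, an RNA-binding protein, to 0.46. Rftn1, a lipid raft protein, stood at 43.4, 54.4 and 50.7 CPM in telogen, anagen and UVB members against 195, 194 and 216 in others, 0.245-fold (0.15 to 0.38).

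Signalling lists moved little. Wnt and Hedgehog growth genes stood at 1.34 (1.25 to 1.44), with 3 of 15 at least 2-fold higher and 0 lower: the ligands Wnt10a at 2.82 (2.03 to 3.81) and Wnt4 at 2.21, and the receptor Edar at 2.47, which belongs to the ectodysplasin pathway. The mediators Gli1, Axin2, Ptch1 and Tcf7 lay between 0.93 and 1.09. Genes for signals to melanocytes stood at 1.35 (1.22 to 1.48), with 2 of 11 higher, Wnt10a and Col17a1, and 2 lower, Tgfb3 at 0.45 and Fgf2 at 0.39. Kitl, the ligand of the melanocyte receptor Kit, stood at 29.0, 81.6 and 122 CPM in telogen, anagen and UVB members, against 50.8, 46.6 and 64.9 in others, 1.63-fold (1.14 to 2.27). Edn2, an endothelin, had 15 calls against an expectation that gives 5.52-fold (3.09 to 9.11). Stem cell rest signals stood at 1.11 (1.03 to 1.19, 0 of 17 past 2-fold), cell cycle genes at 0.93 (0.83 to 1.04, 0 of 14) and the p53 and DNA damage list at 0.90 (0.82 to 0.98, with Phlda3 at 2.31 and Aen at 0.41). Immediate early and AP-1 genes stood at 0.81 (0.76 to 0.85), interferon and antigen presentation genes at 0.81 (0.70 to 0.92) and housekeeping genes at 0.86 (0.78 to 0.95), with 0 of 19, 1 of 13 and 1 of 13 past 2-fold, the last 2 downward. Without the tag number with most members the AP-1 list stood at 0.99.

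Some single features stood out. Of 208 features open in at least 30 members, the 2 with the highest ratios ranked in the same way were the feature at the Sfn start, chr4:133601656-133602155, open in 30 members (23.6%) and 2.14% of others, and one outside all gene windows, chr4:156059659-156060158, open in 31 (24.4%) and 1.62%. Their ratios were 5.03 (3.39 to 7.18) and 6.77 (4.60 to 9.62). Among features open in at least 10 members, a limit set after the values were seen, the highest was chr2:165665173-165665672 in the window of Eya2, a transcriptional coactivator. It was open in 11 members (2 in telogen, 0 in anagen and 9 after UVB) and 18 other nuclei. Both limits count members only, so they favour features that are high in members, and these values are descriptions only. A feature in the Runx1 window, chr16:92631492-92631991, was open in 11 members (2 in telogen, 0 in anagen and 9 after UVB) and in 28 others.

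Members were then compared with 148 barrier-gene nuclei, which had the same kind of excess at the 6 barrier genes. There were 64 such nuclei in telogen, 3 in anagen and 81 after UVB, so anagen was left out. Of the follicle lists, several were higher in members: upper follicle genes at 1.74 (1.45 to 2.08), bulge genes at 1.61 (1.43 to 1.82) and outer root sheath genes at 1.39 (1.10 to 1.75). Inner root sheath genes, also of the follicle, were lower, at 0.66 (0.50 to 0.87). Suprabasal genes stood at 0.56 (0.46 to 0.68) and wound and alarm genes at 0.74 (0.55 to 0.97). General epithelial genes differed little, at 0.92 (0.84 to 1.00), as did basal genes at 1.11 (0.98 to 1.25). Since members had to be low at barrier genes, lower suprabasal genes are near to what the rule used. Fibroblast genes at 1.39 (1.08 to 1.78) and pericyte genes at 1.60 (1.20 to 2.13) were higher in members than in barrier-gene nuclei, while both stood at 0.57 and 1.20 against all other nuclei; their part in the other differences was not tested.

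**Figure D5:**
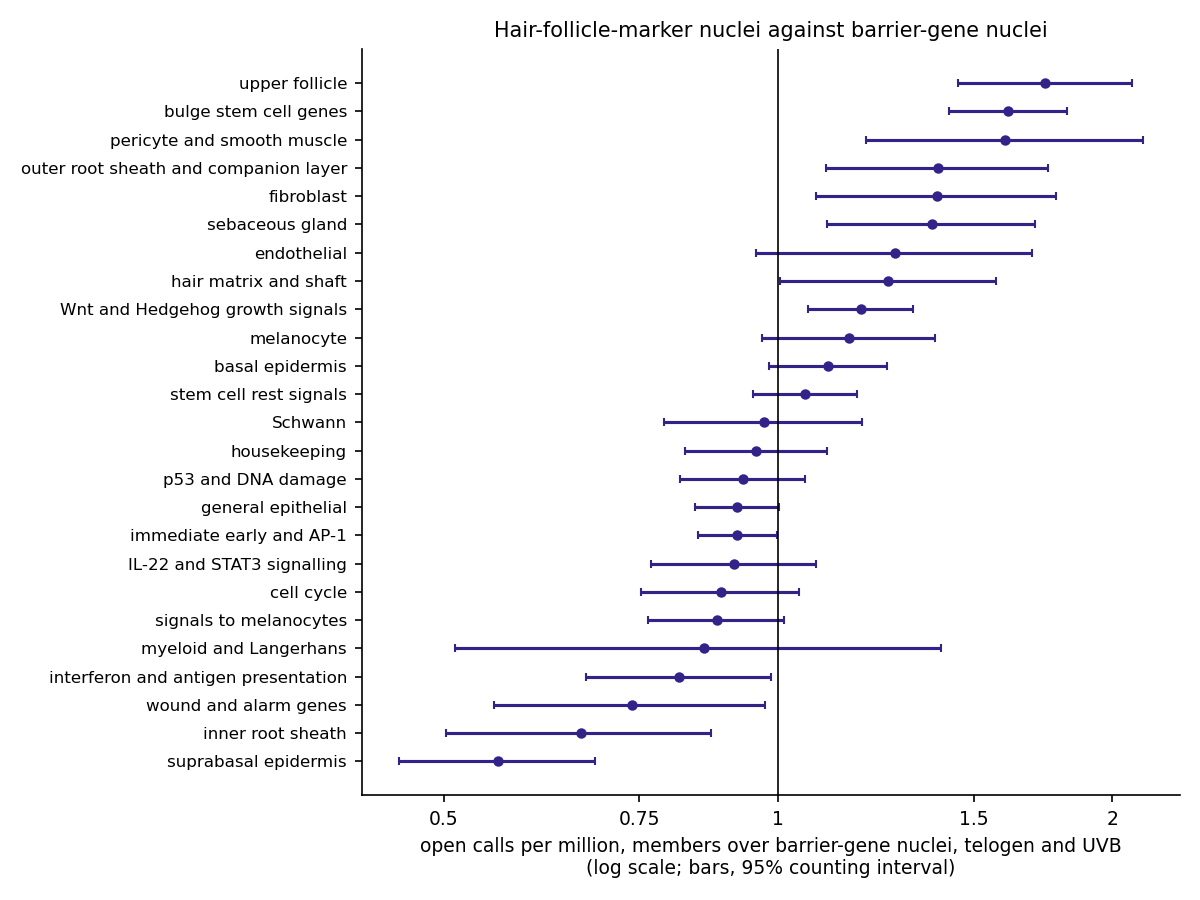
Ratio of CPM in members over barrier-gene nuclei in telogen and UVB (log axis) for each gene list; points are ratios and bars 95% counting intervals. The adipocyte, Merkel cell, T cell, dermal papilla and skeletal muscle lists, which had few calls, are not drawn, nor are the markers at 3.56 and the barrier genes at 0.105, which chose the nuclei; of those drawn, upper follicle genes at 1.74 lie highest and suprabasal genes at 0.56 lowest.

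Of 4797 genes with at least 50 open calls in that comparison, 2.17% were at least 2-fold higher in members and 3.79% lower. The 10 highest were Lgr6, Tspan18, Ltbp2, Runx1, Gli3, Hmcn1, Adgrl3, Hip1, Atg7 and Tns2. Lgr6 stood at 318 CPM in telogen members and 243 in UVB members, against 79.7 and 78.9 in barrier-gene nuclei, 3.33-fold. Runx1 stood at 376 and 279 against 139 and 95.5, 2.85-fold, and Gli3, a Hedgehog effector, at 217 and 274 against 62.3 and 108, 2.70-fold. Ltbp2, an extracellular matrix protein, was 4.53-fold higher. The 10 lowest were Rora, Ptgfrn, Gjb5, Aspg, Pla2g4e, Hpcal1, Klk9, Ptgs1, Cobl and Clec2g. Gjb5, a connexin of the epidermis, stood at 14.5 and 50.7 CPM in telogen and UVB members against 142 and 137, 0.30-fold, and Klk9, a kallikrein protease, at 0 and 45.7 against 90.05 and 120. Rora, a nuclear receptor, stood at 290 and 294 against 627 and 552, 0.51-fold.

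Conditions were compared within the members, on few nuclei. Telogen, anagen and UVB members gave 69083, 110359 and 197160 open calls, of which the 5 deepest nuclei held 40.7%, 43.3% and 17.0%. Only 200 genes had at least 50 calls over telogen and anagen members, and of these 18.5% were at least 2-fold higher in anagen and 6.5% lower, with a median log2 ratio of 0.29 over the 200. Bcas3, a cytoskeletal regulator, was highest, with 634 CPM in anagen and 72.4 in telogen members, 8.76-fold (3.58 to 27.8). Sox5 stood at 580 against 101, 5.72-fold (2.62 to 14.8), and Sox6 at 426 against 72.4, 5.88-fold (2.35 to 18.96). In other nuclei Bcas3, Sox5 and Sox6 were also higher in anagen, at 3.32, 3.15 and 2.40. Sox5 is a SoxD factor of the melanocyte lineage, and melanocyte genes as a list were 5.17-fold higher in anagen members (3.62 to 7.62), beside 3.60-fold in other nuclei. Without the 5 anagen and 1 telogen members open at melanocyte markers, Bcas3 stood at 4.34, Sox5 at 3.64, Sox6 at 1.51 and the melanocyte list at 2.68, and 10 of 75 genes were past 2-fold in place of 50 of 200. The nuclei left out were chosen by the melanocyte list, so its lower value follows from the choice. The housekeeping scaling gave 50 higher and 8 lower genes in place of 37 and 13.

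Epithelial genes were lower in anagen than in telogen members. The general epithelial list stood at 2066 CPM against 3561, 0.58-fold (0.48 to 0.70), and the outer root sheath list at 172 against 651, 0.26-fold (0.15 to 0.46). The same ratios in other nuclei were 0.49 and 0.26. Among single genes, Anxa2, an annexin, stood at 136 against 521, 0.26-fold (0.13 to 0.49). Casz1 stood at 399 against 1100, 0.36-fold (0.24 to 0.53), and Sfn at 190 against 507, 0.38-fold (0.21 to 0.66). In other nuclei Casz1 and Sfn were lower to a like degree, at 0.40 and 0.41, while Anxa2 stood at 1.01. Without the melanocyte-open members the 2 lists stood at 0.77 and 0.40, Anxa2 at 0.19, Casz1 at 0.53 and Sfn at 0.52. Upper follicle genes stood at 0.47 (0.32 to 0.68), but at 1.00 without nuclei deeper than 3 times the median of their condition, and bulge genes at 0.63 (0.48 to 0.81). Hair matrix genes at 0.92 (0.57 to 1.49), inner root sheath genes at 1.28 (0.75 to 2.24) and cell cycle genes at 0.98 (0.70 to 1.40) had intervals that held 1, so a difference with the growth phase of the follicle was not detectable at this depth.

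Over telogen and UVB members 538 genes had enough calls, and 4.46% were at least 2-fold higher after UVB and 2.04% lower, or 24 and 11 genes. Scaled to housekeeping gene ends in place of all open calls, 50 were higher and 5 lower. Tns3, a tensin of focal adhesions, stood at 436 CPM after UVB and 145 in telogen, 3.01-fold (1.56 to 6.51), beside 1.24 in other nuclei. Ptpre, a tyrosine phosphatase, stood at 360 against 116, 3.11-fold (1.50 to 7.48), beside 0.63. Slit3, a guidance ligand, was 2.15-fold higher (1.26 to 3.90). Without UVB tag number 19, Tns3 stood at 3.09 (1.11 to 8.46), Ptpre at 3.86 (1.32 to 11.5) and Slit3 at 2.36 (0.99 to 5.42). Immediate early and AP-1 genes stood lower after UVB, at 2759 CPM against 4401, 0.63-fold (0.54 to 0.72), with 0 of 8 genes past 2-fold upward and 2 downward. These were Jun at 0.42 (0.25 to 0.70) and Atf3 at 0.45 (0.25 to 0.82), both of the AP-1 family. The list stood at 0.89 in other nuclei and at 1.02 (0.79 to 1.29) with only the 6 UVB members outside tag number 19, where Jun stood at 0.66 (0.23 to 1.62) and Atf3 at 0.62 (0.16 to 1.84). Housekeeping genes stood at 0.70 (0.54 to 0.92) in the same comparison, so the lower level was not particular to AP-1 genes. The share of open calls within 1 kb of gene ends was 41.4% in telogen and 34.7% in UVB members, and its part in these values was not tested. The p53 and DNA damage list stood at 0.79 (0.63 to 1.01), interferon genes at 0.88 (0.61 to 1.27) and wound and alarm genes at 1.13 (0.65 to 2.08). Fibroblast genes were 2.31-fold higher in UVB members (1.34 to 4.29), from 99 calls against 15, but 0.78-fold without nuclei deeper than 3 times the median.

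Over anagen and UVB members 761 genes had enough calls, and 10.9% were at least 2-fold higher after UVB and 11.3% lower, 83 and 86 genes, or 98 and 66 with the housekeeping scaling. The 3 comparisons share nuclei pairwise and are not independent. Il20rb, a subunit of an interleukin receptor of keratinocytes, stood at 254 CPM after UVB and 27.2 in anagen, from 50 calls and 3, a ratio of 9.33 (3.01 to 46.8) beside 1.20 in other nuclei. Ece1, the enzyme that makes active endothelin, stood at 421 against 81.6, 5.16-fold (2.59 to 11.7), beside 0.98. Zbtb16, a zinc-finger repressor, was 3.19-fold higher (1.90 to 5.71). Kif26b, a kinesin, was lowest at 0.20 (0.12 to 0.35), followed by Fstl4 at 0.21 (0.11 to 0.39). Bulge genes stood at 1851 against 1106, 1.67-fold (1.36 to 2.07), with 3 of 5 genes at least 2-fold higher, Nfatc1, Tcf7l1 and Vdr, beside 1.00 in other nuclei. Without UVB tag number 19, Ece1 stood at 3.05 (0.80 to 10.1), Zbtb16 at 2.26 (0.79 to 5.73), Fstl4 at 0.39 (0.08 to 1.23) and the bulge list at 1.30 (0.84 to 1.97), intervals that hold 1. Those of Il20rb at 7.32 (1.24 to 49.9), from 4 calls and 3, and Kif26b at 0.20 (0.02 to 0.76), from 2 and 55, did not. Without the melanocyte-open members the bulge list stood at 1.41, Il20rb, with 1 anagen call, at 18.7 (3.21 to 755), Ece1 at 3.46, Kif26b at 0.32 and Fstl4 at 1.12, which no longer lay below 1, and 76 of 520 genes were past 2-fold in place of 169 of 761. Almost all UVB members are of tag number 19, so UVB and that tag cannot be told apart.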

How the data were processed

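The deposited values are whole-number counts per 500 bp feature and nucleus, for 315694 features in 3 matrices. The submitters' processing notes name Bowtie2, SAMtools, MACS2 and the build mm10 (GRCm38), with no version; how the authors counted, filtered nuclei or treated doublets is not given in the sources used here, and no doublet caller was run. Of the counts above 0, 61.1% are 2 and none is above 4, so a value above 0 was taken as 1 open call. A barcode deposited more than once in a condition was counted once, keeping the deeper copy.

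Levels (CPM) are open calls per 1000000 open calls of the class, computed here. Members were compared with other nuclei by observed over expected calls, summed over conditions, with exact Poisson intervals; ratios between conditions have exact conditional binomial intervals and shares Clopper-Pearson intervals, all at 95%. Intervals cover counting error only, and reads without molecular identifiers are not independent molecules. With 1 pool per condition no p-value was computed. A gene was counted as higher at 2-fold or more and as lower at 0.5 or less, among genes with at least 10 expected member calls outside the rule windows (members over others) or with at least 50 calls over the groups compared (other comparisons). The planned minimum for members over others was also 50 calls; the limit of 10 expected calls was chosen after seeing the data, as were the limit of 10 for features, lists over 1 Mb from the rule genes, the barrier-gene and melanocyte-open classes, the depth-matched nuclei, the motifs, the Sfn promoter and the values without anagen, without single tag numbers or, within a condition, without melanocyte-open members. The named genes are the markers, the extremes of each list, and the 10 highest and 10 lowest of each comparison ranked by the end of the interval nearest 1, among genes with at least 50 calls; a few list genes with fewer calls were named after their values were seen. The members and the 32 lists were chosen with earlier results of these data known, so no pattern here is independent support. Of 372 list genes, 370 matched RefSeq symbols, and 18019 of 21887 protein-coding genes had a feature in their window. Lists not described in the text stood, in members over other nuclei, at 0.82 (dermal papilla), 0.91 (T cell), 0.87 (skeletal muscle), 1.35 (adipocyte), 1.30 (Merkel cell), 1.06 (IL-22 and STAT3 signalling) and 1.51 (wound and alarm genes). Some list genes are not reported here. The calculations were tested on simulated data. Computation used scipy 1.17.1 and numpy 2.4.6 under Python 3.11.15, tables pandas 2.3.3, and plots matplotlib 3.10.9. Alternatives covered the rule's limits, depth, tag numbers, second copies of barcodes, count scale, gene ends and minimum calls.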

Additional observations from a re-analysis of the deposited data

How the results depend on the processing

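No paired analysis was possible because each condition is 1 pool and the labels give no replicate numbers that pair nuclei across conditions. The share of members fell with a higher minimum of open features and when nuclei were thinned or the deep ones left out. Under a limit of 3 times the pooled share it changed little, at 1.27% in telogen, 0.746% in anagen and 1.05% after UVB. With at least 4 open features it was 0.490% in telogen, 0.373% in anagen and 0.565% after UVB. With every nucleus thinned to 1000 open features it was 0.649%, 0.473% and 0.517%. Without nuclei deeper than 3 times the median of their condition the UVB share was 0.758%, and without tag number 19 it was 0.166%.

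Of genes compared between members and other nuclei, 818 of 9895 were past 2-fold. The count was 1515 on deposited counts, 335 with at least 20 expected calls and 434 without the tag number with most members in each condition. The condition counts moved with most alternatives. With all deposited barcodes kept they held, at 59 for anagen over telogen, 37 for UVB over telogen and 164 for UVB over anagen. UVB over telogen also held with a share 3 times the pooled one (31) and without melanocyte-open nuclei (33). Scaled to housekeeping gene ends, anagen over telogen (58) and UVB over anagen (164) held as well. For anagen over telogen, 50 of 200 genes became 10 with at least 4 open features, 247 on deposited counts, 0 at gene ends, 499 with at least 20 calls, 15 with a share 3 times the pooled one, 1 without the deep nuclei, 10 without melanocyte-open nuclei and 31 without the tag number with most members. For UVB over telogen, 35 of 538 became 3, 312, 2 and 573 under the first 4 of these, 55 scaled to housekeeping gene ends, 3 without the deep nuclei and 1 without the tag number with most members. For UVB over anagen, 169 of 761 became 38, 664, 0 and 1072 under the first 4, 68 with the 3-fold share, 6 without the deep nuclei, 76 without melanocyte-open nuclei and 12 without the tag number with most members. Fewer genes had enough calls under most of these, for example 2, 17 and 23 at gene ends, so a lower count does not show fewer differences. Between UVB and telogen members the fibroblast list turned from 2.31 to 0.78, and between anagen and telogen members the upper follicle list from 0.47 to 1.00, both without the deep nuclei; the cause was not tested. Of the values for single lists and genes, 1214 stayed within their counting interval and 142 moved.

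Depth, the 1 UVB tag number and the single pool per condition all limit these results: members gave between 69083 and 197160 open calls per condition, and most single genes had fewer than 50.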
